A study of Capitella teleta with 10 samples.

Results

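A total of 4868 regions of the genome of the annelid Capitella teleta held ATAC-seq peaks in all 10 libraries of its development. They were nevertheless outside the consensus peak set of the study. They were chosen by these 2 properties alone. Peaks of the 10 deposited lists were merged where they overlapped or touched, which gave 93145 regions, and 19631 of these held a peak of every list. Of those 19631 regions, 14763 overlapped at least 1 of the 46409 consensus peaks and the other 4868 overlapped none, not even by 1 bp. The presence in every library and the absence from the consensus are therefore given and are no result.

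ATAC-seq uses a transposase to cut and tag DNA that is not wrapped tightly around nucleosomes, so that stretches with many cuts mark open chromatin such as promoters and enhancers. A peak caller compares the cuts at a place with the local background and reports each excess as a peak. A consensus set keeps the peaks that reappear between replicates and joins them over all samples, and it commonly leaves out repeats, where short reads cannot be placed with certainty. Capitella teleta broods its embryos, which develop into a larva that swims but does not feed and builds its trunk segments early.

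The libraries came from 5 stages, the 64-cell embryo, the gastrula and 3 larval stages named stage 4tt, stage 5 and stage 8. Each had 2 libraries, and the labels name no genetic or chemical treatment. Each library was made from about 50000 cells of pooled animals, about 500 embryos of 64 cells, 200 gastrulae, 120 larvae of stage 4tt, 90 of stage 5 or 50 of stage 8. The growth protocol in the labels names another annelid, Owenia fusiformis, whereas the organism label and the scaffold names give Capitella teleta, which was used. Per the methods of the study, the 6 libraries up to stage 4tt were sequenced at Oxford and the 4 libraries of stage 5 and stage 8 at Novogene, so stage and sequencing site cannot be told apart between stage 4tt and stage 5. The study describes the 2 libraries of a stage as biological replicates. Whether they came from separate broods is not stated in the labels or methods used here, and p-values measure the spread between these libraries.

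The measurement followed here is the fold enrichment, the height of a peak divided by the background the caller expected at that place. Where a library had several peaks in a region, the highest was used. It is relative to a local background and is not a read count, and the lists give no reads, so the depth behind each value is unknown. The lists held 40205 to 64765 peaks each, and the regions outside the consensus took 8.19% to 13.8% of the peaks of a list. No gene could be assigned, because the 31977 genes of the reference table used here carry no scaffold, and the build to which these libraries were mapped is not given in the sources used here. For its gene annotation of the species the study names the assembly at Ensembl Metazoa, and whether the lists are on that assembly was not tested. Coordinates are those of the deposited lists on numbered scaffolds, counted from 1.

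Regions outside the consensus lay on short scaffolds far more often than regions over consensus peaks. They were spread over 3119 scaffolds, of which 2287 held 1 such region, 450 held 2 and 382 held 3 or more, with a maximum of 15 on scaffold 2. The 14763 regions over consensus peaks were on 2702 scaffolds. On 1731 scaffolds, which held 1976 of the regions outside the consensus (40.6%), there was no consensus peak at all. For a region over a consensus peak this cannot happen, so part of the contrast in scaffolds follows from the way the sets were formed.

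Scaffold lengths were not used here, and the end of the last peak on a scaffold served as a lower limit of its length, called its extent. The median extent was 27860 bp for regions outside the consensus and 276023 bp for regions over consensus peaks. The quartiles overlapped in part, with 3894 to 211840 bp outside the consensus and 127745 to 472977 bp over consensus peaks. Scaffolds with an extent of up to 2 kb held 804 regions outside the consensus (16.5%) and 569 over consensus peaks (3.85%). In the class of 2 to 10 kb there were 1249 (25.7%) and 738 (5.0%), so that more regions lay outside the consensus than over it on these small pieces of the assembly. The order turned on large scaffolds, and those with an extent over 200 kb held 1277 regions outside the consensus (26.2%) and 9210 over consensus peaks (62.4%).

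**Figure D1:**
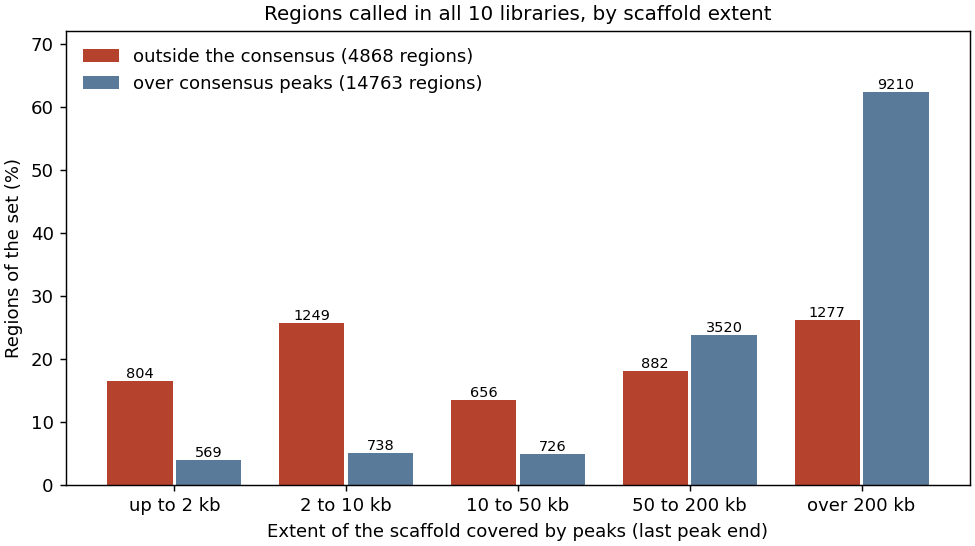
Share of each set, in percent, by the extent of the scaffold (end of its last peak, 5 classes), with the number of regions above each bar. Regions outside the consensus outnumber those over consensus peaks in the 2 lowest classes (804 against 569, and 1249 against 738), and regions over consensus peaks outnumber them above 10 kb.

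Many regions sat at the very edge of what the peaks covered. A start within the first 500 bp of the scaffold was found for 1110 regions outside the consensus (22.8%) and for 749 over consensus peaks (5.07%). The region was the last peak of its scaffold in 1706 cases outside the consensus (35.0%) and in 1220 cases over consensus peaks (8.26%). Neither scaffold extent nor the number of regions per scaffold was held equal in these shares. Outside the consensus 4868 regions lay on 3119 scaffolds, and over consensus peaks 14763 lay on 2702. Each scaffold has a single last peak, so part of the contrast in last peaks follows from these numbers.

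Most regions outside the consensus that had a consensus peak on the same scaffold were some kilobases away from it. For the 2892 regions that shared a scaffold with a consensus peak, the nearest one was a median of 3419 bp away, with quartiles of 1463 and 6338 bp. Within 1000 bp of a consensus peak lay 487 of them (16.8%), and 378 (13.1%) lay more than 10000 bp away. The nearest was the region on scaffold 102 from 90947 to 92713, 8 bp from a consensus peak. The farthest was on scaffold 106 from 19805 to 20754, with 97200 bp to the nearest of the 51 consensus peaks of that scaffold.

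These regions also followed one another along the scaffolds. Going from each region called in every list to the next one on its scaffold, the next was outside the consensus for 937 of 2356 regions outside the consensus (39.8%) and for 1437 of 12494 regions over consensus peaks (11.5%). Part of this follows from the rule, since on a scaffold without a consensus peak the next region can only be outside the consensus. On scaffolds that held regions of both sets, the next was outside the consensus for 590 of 2009 regions outside it (29.4%) and for 1437 of 10507 over consensus peaks (13.7%). On these scaffolds the median gap between 2 neighbouring regions outside the consensus was 5194 bp, against 7084 bp between 2 neighbouring regions over consensus peaks. Over all scaffolds most stood alone, with 3241 single regions, 528 runs of 2 and 108 runs of 3. The longest run was 8 regions on scaffold 426 from 150712 to 194380, a stretch of 43669 bp on a scaffold with 23 consensus peaks, in which the mean fold enrichment of the regions ranged from 2.91 to 9.44. Runs of 7 were found on scaffolds 676, 476, 339 and 1128. The run on scaffold 339 began at position 98 of the scaffold, and its regions had mean fold enrichments of 2.57 to 16.3. Scaffold 1128 held a run of 7 and no consensus peak.

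How often a region was outside the consensus differed with the number of libraries that had a peak in it. All 22271 regions called in 1 library were outside. This follows from how the consensus was built, since the study kept peaks that were reproducible between the replicates of a stage. Outside were also 27.2% of the regions called in 9 libraries and 24.8% of those called in 10. The place of the regions outside the consensus moved the other way. Of those called in 1 library 10.6% were on a scaffold with no consensus peak, and the share was higher at every further library, with 21.5% at 3, 28.2% at 5, 33.0% at 7, 35.4% at 9 and 40.6% at 10. Their median width also differed, with 167 bp for those called in 1 library, 708 bp in 9 and 898 bp in 10. The number of libraries is part of the rule, so these shares are a description.

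**Figure D2:**
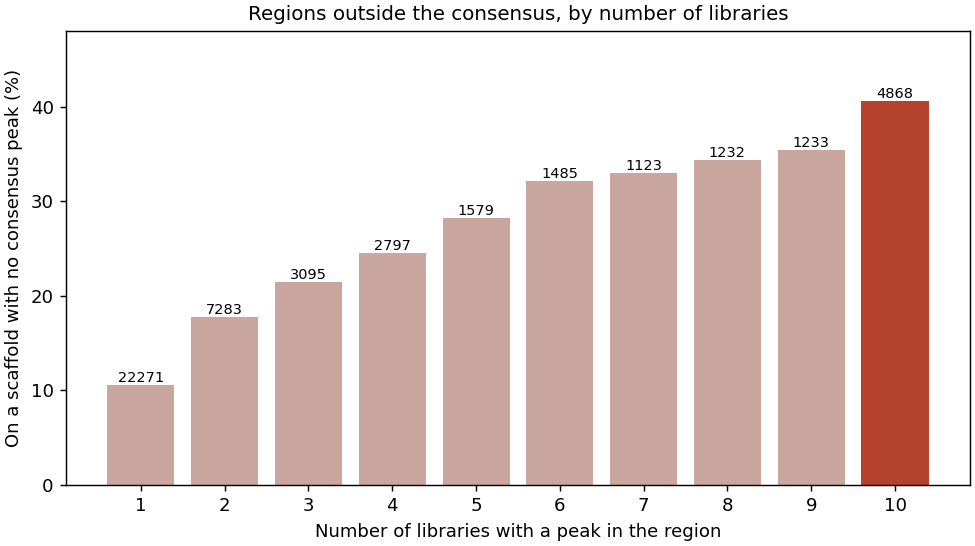
Share of the regions outside the consensus that lay on a scaffold with no consensus peak (percent, vertical axis), by the number of libraries with a peak in the region (horizontal axis), with the number of regions above each bar. The share is 10.6% for 1 library and 40.6% for the 4868 regions called in all 10.

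The edge of the rule was checked on both sides. Just outside it, 1233 regions free of consensus peaks were called in 9 of the 10 lists, with a median mean fold enrichment of 3.18 and a range of 1.92 to 9.32. The list they missed was most often replicate 1 of the 64-cell embryo, in 265 cases, and least often replicate 2 of stage 5, in 41. All 46409 consensus peaks start exactly where a listed peak starts. An overlap of a few bases could therefore hardly occur, and its absence is no result. No region called in every list overlapped the consensus by 50 bp or less, the smallest overlap being 136 bp on scaffold 24833 from 170 to 1303, and 5 regions outside the consensus came within 50 bp of a consensus peak, with mean fold enrichments of 3.05 to 6.11. Of the regions over consensus peaks, 214 had less than 50% of their length in consensus peaks.

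Regions outside the consensus were narrower than the others. Their median width was 898 bp (quartiles 657 to 1215 bp), against 1197 bp (900 to 1656 bp) over consensus peaks, and they were narrower in each of the 5 extent classes, with class medians of 730 to 981 bp outside the consensus and 838 to 1238 bp over consensus peaks. A single peak in every list made up 3328 of them (68.4%), against 8959 (60.7%) over consensus peaks. The summit, the highest point of a peak, moved by a median of 184 bp over the 10 libraries outside the consensus and by 220 bp over consensus peaks.

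The widest region outside the consensus was on scaffold 94 from 185349 to 190200, 4852 bp put together from 31 peaks, 14234 bp from the nearest of 81 consensus peaks on that scaffold. Its fold enrichment was modest throughout, with 4.04 and 3.70 at the 64-cell stage, 3.56 and 3.69 at the gastrula, 5.89 and 6.17 at stage 4tt, 5.05 and 4.61 at stage 5, and 5.69 and 5.61 at stage 8. At 141 bp, the narrowest lay on scaffold 884 from 44747 to 44887, with 3.84 and 3.11 at the 64-cell stage, 5.99 and 4.09 at the gastrula, 5.96 and 6.08 at stage 4tt, 2.79 and 2.88 at stage 5, and 3.86 and 4.33 at stage 8. Its summit moved by 33 bp over the 10 libraries, and its gastrula replicates differed more than those of any larval stage.

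Pooled over all scaffolds, the regions outside the consensus had a slightly higher fold enrichment than the rest, but not on the short scaffolds. The mean fold enrichment over the 10 libraries had a median of 4.57 outside the consensus (quartiles 3.62 to 6.16) and 4.33 over consensus peaks (3.29 to 5.81). This and the other contrasts between the sets are descriptions with no test, since regions are not replicates and peak strength decides whether a peak is called. The upper end was heavier outside the consensus, where 266 regions (5.46%) had a mean above 10, against 243 (1.65%) over consensus peaks. The single highest mean was nevertheless over a consensus peak, at 32.4, while the highest outside was 24.3. Within the regions outside the consensus, those on a scaffold without any consensus peak had a median mean fold enrichment of 4.95 and those on a scaffold with one 4.37. In the 2 shortest extent classes, which held 16.5% and 25.7% of the regions outside the consensus, the order of the sets was the reverse of the overall one. The medians were 4.88 outside the consensus and 5.78 over consensus peaks up to 2 kb, and 4.96 and 5.13 at 2 to 10 kb. They were 4.60 and 4.55 at 10 to 50 kb and 4.48 and 4.27 at 50 to 200 kb, and above 200 kb both were 4.18.

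The region with the highest mean fills nearly the whole of what peaks covered on its scaffold, number 28067, from 105 to 974. It had a fold enrichment of 22.0 and 23.8 at the 64-cell stage, 29.9 and 33.0 at the gastrula, 33.3 and 35.9 at stage 4tt, 19.7 and 19.9 at stage 5, and 12.5 and 13.0 at stage 8, a mean of 24.3 ± 8.40 (SD over 10 libraries). Its summit stayed within 5 bp in all 10 libraries. The second, on scaffold 32641 from 164 to 1180, had 19.2 and 17.9, 29.6 and 29.0, 25.0 and 30.5, 25.2 and 24.6, and 18.2 and 17.8 at the 5 stages in the same order, a mean of 23.7 ± 5.09. The third, on scaffold 8441 from 2007 to 2976, was the steadiest of these, with 20.3 and 24.4, 26.8 and 24.8, 27.9 and 27.2, 20.4 and 21.0, and 20.3 and 21.5, a mean of 23.5 ± 3.11. All 3 were strong at every stage, and none of their scaffolds held a consensus peak.

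Regions outside the consensus stood out at the 64-cell stage. Their median fold enrichment there was 4.37 and 4.46 in the 2 libraries, against 3.39 and 3.45 for regions over consensus peaks. From the gastrula on the pooled medians of the sets were close, although they were not close on short scaffolds, as the values by extent class show. The medians outside the consensus and over consensus peaks were 4.84 and 4.76 in gastrula replicate 1 and 4.86 and 4.77 in replicate 2. At stage 4tt the order was the reverse, with 4.87 against 5.16 in replicate 1 and 4.83 against 5.03 in replicate 2. At stage 5 the medians were 4.01 and 3.94 in replicate 1 and 4.02 and 3.99 in replicate 2, and at stage 8 they were 4.10 and 4.07 in replicate 1 and 4.28 and 4.18 in replicate 2.

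**Figure D3:**
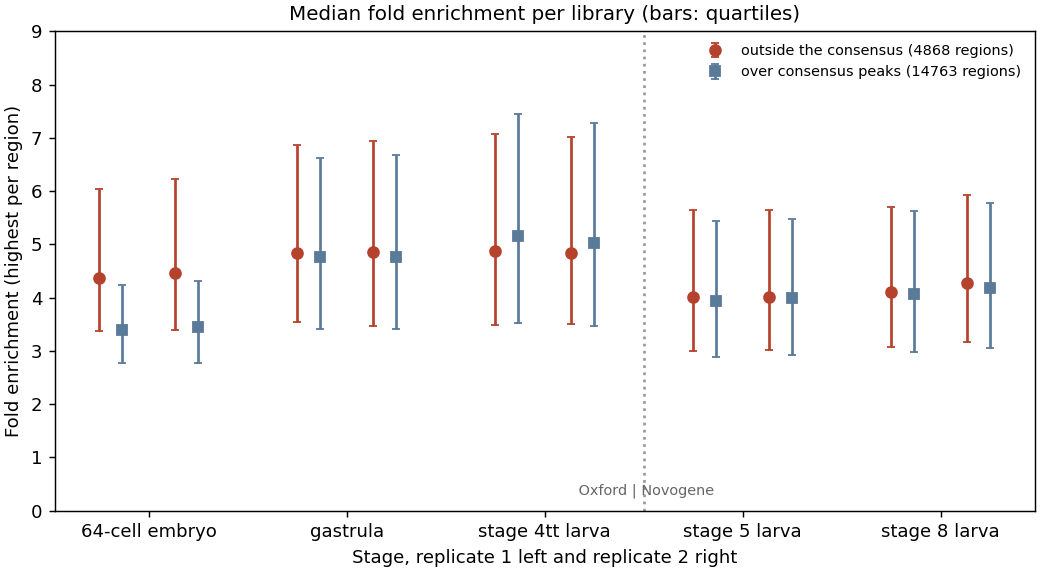
Median fold enrichment per library (points, vertical axis) with quartiles (bars) for the 4868 regions outside the consensus and the 14763 over consensus peaks, by stage, and a dotted line between the 2 sequencing sites. At the 64-cell stage the medians outside the consensus, 4.37 and 4.46, lie above those over consensus peaks, 3.39 and 3.45, and from the gastrula on the pooled medians of the sets differ little beside their quartiles.

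As a difference of median log2 values, regions outside the consensus minus regions over consensus peaks, this was 0.37 in both 64-cell libraries, 0.02 and 0.03 at the gastrula, −0.08 and −0.06 at stage 4tt, 0.02 and 0.01 at stage 5, and 0.01 and 0.03 at stage 8. Between replicates this difference had a pooled SD of 0.0106, so the gap at the 64-cell stage was far larger than the spread between libraries, and the gap at stage 4tt was also larger. The mean over the 10 libraries, 0.072, rested on the 64-cell stage, and it was 0.039 without either of the 64-cell libraries. The median fold enrichment over the regions outside the consensus averaged 4.41 ± 0.0586 in 64-cell embryos, 4.85 ± 0.0135 in gastrulae, 4.85 ± 0.0291 in stage 4tt larvae, 4.02 ± 0.0131 in stage 5 larvae and 4.19 ± 0.125 in stage 8 larvae (SD, n = 2 each). The step at stage 5 is also the step between sequencing sites.

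The gap at the 64-cell stage was present on scaffolds of every extent. It was 0.11 on the log2 scale up to 2 kb, 0.18 at 2 to 10 kb, 0.24 at 10 to 50 kb, 0.30 at 50 to 200 kb and 0.25 above 200 kb. At stage 4tt the same difference was −0.44, −0.25, −0.09, −0.06 and −0.12 in these classes, so that the regions outside the consensus were lower in each class, most so on the shortest scaffolds. The pooled closeness at the other stages did not hold in every class. The difference was −0.34, −0.18, −0.04, 0.01 and −0.02 at the gastrula in these classes. It was −0.27, −0.08, 0.03, −0.02 and −0.09 for stage 5. For stage 8 it was −0.28, −0.06, 0.05, 0.02 and −0.14. Up to 2 kb the regions outside the consensus were therefore lower at every stage but the 64-cell one, and the sets also differ in their mix of scaffold extents.

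Significance in the caller's terms gave another order. The median −log10 q-value, which grows with depth as well as with enrichment, was 17.3 and 22.5 outside the consensus at the 64-cell stage, against 11.7 and 16.0 over consensus peaks. In every later library it was lower outside the consensus, for example 28.1 and 31.2 at the gastrula, against 38.1 and 42.4 over consensus peaks. The bases covered by peaks had the same order of the sets in every library but 64-cell replicate 2. Outside the consensus a median of 578 and 651 bp was covered in the 64-cell libraries and 613 to 700 bp later, whereas regions over consensus peaks had 553 and 683 bp in the 64-cell libraries and 779 to 972 bp later.

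For each region the stage of its highest value was taken after centring each library on its median over the 19631 regions called in all lists. That stage was the 64-cell embryo for 2226 regions outside the consensus (45.7%) and for 3463 over consensus peaks (23.5%). It was the gastrula for 14.3% and 14.2%, stage 4tt for 14.3% and 23.6%, stage 5 for 10.8% and 15.9%, and stage 8 for 14.8% and 22.9%. The lowest value was at the 64-cell stage for 10.4% outside the consensus and 33.8% over consensus peaks. Without centring, the 64-cell stage was the highest for 23.2% of regions outside the consensus, less often than stage 4tt with 30.1%, and it was the highest for 8.31% over consensus peaks.

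To follow single regions, the centred log2 values of all 19631 regions were compared between consecutive stages with limma, all 10 libraries in 1 fit, and a region was called where its adjusted p was below 0.05, whatever the size of the change. Centring sets the typical region to no change, so a call means higher or lower relative to the regions called in every list. The median standard error of a log2 change was 0.13. Neighbouring comparisons share the libraries of 1 stage.

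From the 64-cell embryo to the gastrula, 2266 regions outside the consensus (46.5%) fell and 625 (12.8%) rose, while 29.0% of all regions fell and 24.8% rose. Regions over consensus peaks fell in 23.2% and rose in 28.8% of cases. The median log2 change was −0.31 outside the consensus and 0.07 over consensus peaks. The direction rests on the centring. Without it, 1148 regions outside the consensus fell and 1732 rose, as the median of all regions was higher by 0.40 on the log2 scale at the gastrula. Over consensus peaks 1018 fell and 9167 rose without centring. Regions outside the consensus therefore fell in a larger share than regions over consensus peaks on both scales, but fell more often than they rose only on the centred one. Leaving out any 1 library left 2531 to 2950 called, against 2891 with all libraries.

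The share that fell at the gastrula changed with the scaffold. Outside the consensus it was 45.5% up to 2 kb of extent, 54.4% at 2 to 10 kb, 54.4% at 10 to 50 kb, 42.6% at 50 to 200 kb and 38.2% above 200 kb. Over consensus peaks it was 33.7%, 38.3%, 34.6%, 22.2% and 20.8% in the same classes. It was higher outside the consensus in all 5 classes, and outside the consensus it was 52.5% on scaffolds without a consensus peak and 42.5% on scaffolds with one.

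The region that fell most was on scaffold 1893 from 9731 to 10218, a 488 bp region on a scaffold without a consensus peak. It had a fold enrichment of 3.54 and 2.85 at the gastrula, against 22.1 and 22.4 at the 64-cell stage. It then had 5.58 and 5.95 at stage 4tt, 2.19 and 2.15 at stage 5, and 3.59 and 4.62 at stage 8. Both 64-cell libraries were far above all 8 later ones. The log2 change at the gastrula was −3.23 ± 0.14 (SE, limma adjusted p = 3.95e-08), and −2.81 without centring.

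The region that rose most was on scaffold 577 from 14178 to 15999, 1822 bp wide and 1231 bp from the nearest of 31 consensus peaks. It had 12.0 and 11.3 at the gastrula, against 2.27 and 2.74 at the 64-cell stage, and then 8.46 and 8.62 at stage 4tt, 5.33 and 4.97 at stage 5, and 3.78 and 4.04 at stage 8. It was lowest in both 64-cell libraries and became lower at each stage after the gastrula. The log2 change at the gastrula was 1.81 ± 0.11 (SE, limma adjusted p = 5.64e-07).

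Few regions were called between the gastrula and stage 4tt. Of the regions outside the consensus 466 fell (9.57%) and 236 rose (4.85%), beside 5.86% and 4.15% of all regions, and over consensus peaks 4.63% fell and 3.92% rose. The total of 702 called depended on single libraries. It was 357 without gastrula replicate 2, 447 without stage 4tt replicate 1 and 374 without stage 4tt replicate 2, and it was 143 when only the 4 libraries of these stages were fitted. Without centring 360 regions outside the consensus fell (7.4%) and 376 rose (7.72%), and over consensus peaks 3.37% fell and 7.88% rose.

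The largest fall was on scaffold 27992 from 439 to 1293, with 3.61 and 3.76 at stage 4tt, against 8.57 and 18.3 at the gastrula, a log2 change of −1.83 ± 0.30 (SE, limma adjusted p = 0.00532). It had 17.4 and 11.6 at the 64-cell stage and stayed between 3.33 and 4.41 at stage 5 and stage 8. Both gastrula libraries were above both stage 4tt libraries, but they differed from each other by more than 2-fold. The call was lost with only the 4 libraries of these stages, at an adjusted p of 0.0576 by limma.

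The largest rise was on scaffold 22920 from 366 to 1446, with 17.8 and 19.4 at stage 4tt, against 9.05 and 2.97 at the gastrula. The log2 change was 1.77 ± 0.44 (SE, limma adjusted p = 0.047). It had 4.82 and 3.39 at the 64-cell stage, 14.1 and 14.3 at stage 5, and 7.83 and 9.14 at stage 8. Its gastrula libraries differed more than 3-fold from each other, and the call was lost in 9 alternatives, with limma adjusted p of 0.0505 to 0.153, among them every fit without 1 of the 64-cell, stage 4tt, stage 5 or stage 8 libraries. Its direction was the same in all of them.

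From stage 4tt to stage 5, 1496 regions outside the consensus rose (30.7%) and 1115 fell (22.9%), while 23.9% of all regions rose and 20.7% fell. Over consensus peaks 21.6% rose and 20.0% fell. Without centring the balance was the reverse, with 733 regions outside the consensus that rose (15.1%) and 2217 that fell (45.5%). Over consensus peaks 5.27% rose and 51.9% fell on that scale. The median of all regions was lower by 0.33 on the log2 scale at stage 5. The stages also differ in sequencing site, which cannot be told apart from the stage here. The total of 2611 called was 1733 without stage 5 replicate 1.

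The largest rise was on scaffold 1053 from 26082 to 27265, on a scaffold without a consensus peak. It had 9.51 and 8.30 at stage 5, against 2.41 and 3.20 at stage 4tt, a log2 change of 2.01 ± 0.14 (SE, limma adjusted p = 4.08e-06). Its earlier course was downward, with 6.16 and 6.08 at the 64-cell stage and 4.35 and 4.27 at the gastrula, and it had 6.53 and 7.58 at stage 8. Stage 4tt was thus its low point in both libraries.

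The largest fall was on scaffold 1246 from 107 to 1493, again on a scaffold without a consensus peak. It had 2.16 and 2.06 at stage 5, against 10.7 and 10.6 at stage 4tt, a log2 change of −2.00 ± 0.10 (SE, limma adjusted p = 1.02e-06). It had 13.9 and 14.6 at the 64-cell stage, 7.62 and 7.37 at the gastrula, and 2.98 and 2.67 at stage 8. All 6 libraries up to stage 4tt were above all 4 libraries of stage 5 and stage 8, which is also the split between the sequencing sites. Its summit moved by 1101 bp over the libraries, so the highest peak was not always at the same place in the region.

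From stage 5 to stage 8, 428 regions outside the consensus fell (8.79%) and 329 rose (6.76%), close to the 7.69% and 6.55% of all regions. Over consensus peaks 7.33% fell and 6.48% rose. The 757 calls were fewer without each of the 4 libraries of these stages, at 223 when replicate 1 of stage 5 was left out, 259 when its replicate 2 was left out, 288 when replicate 1 of stage 8 was left out and 251 when its replicate 2 was left out. They were 1609 when only these 4 libraries were fitted. Without centring 345 regions outside the consensus fell (7.09%) and 475 rose (9.76%), and over consensus peaks 5.36% fell and 9.7% rose.

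The largest fall was on scaffold 29593 from 160 to 1273, with 1.81 and 1.99 at stage 8, against 6.27 and 6.43 at stage 5, a log2 change of −1.80 ± 0.17 (SE, limma adjusted p = 8.01e-05). With peaks of a −log10 q-value of 5 or more it had no value under these coordinates, and why was not tested. Stage 5 was a single high point, since the earlier values were 2.77 and 2.33 at the 64-cell stage, 3.47 and 4.65 at the gastrula, and 3.55 and 2.51 at stage 4tt. The largest rise was on scaffold 42021 from 43 to 715, with 15.2 and 18.7 at stage 8, against 4.63 and 4.53 at stage 5, a log2 change of 1.82 ± 0.29 (SE, limma adjusted p = 0.00412). Its replicates were far apart at the 64-cell stage, with 13.2 and 6.65, and less so at the gastrula, with 9.80 and 6.38, and at stage 4tt, with 8.05 and 6.64. Of these 8 regions with the largest changes, all but the one on scaffold 577 were on scaffolds without a consensus peak. Such scaffolds held 40.6% of all regions outside the consensus, and 8 regions are too few to compare with that share.

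**Figure D4:**
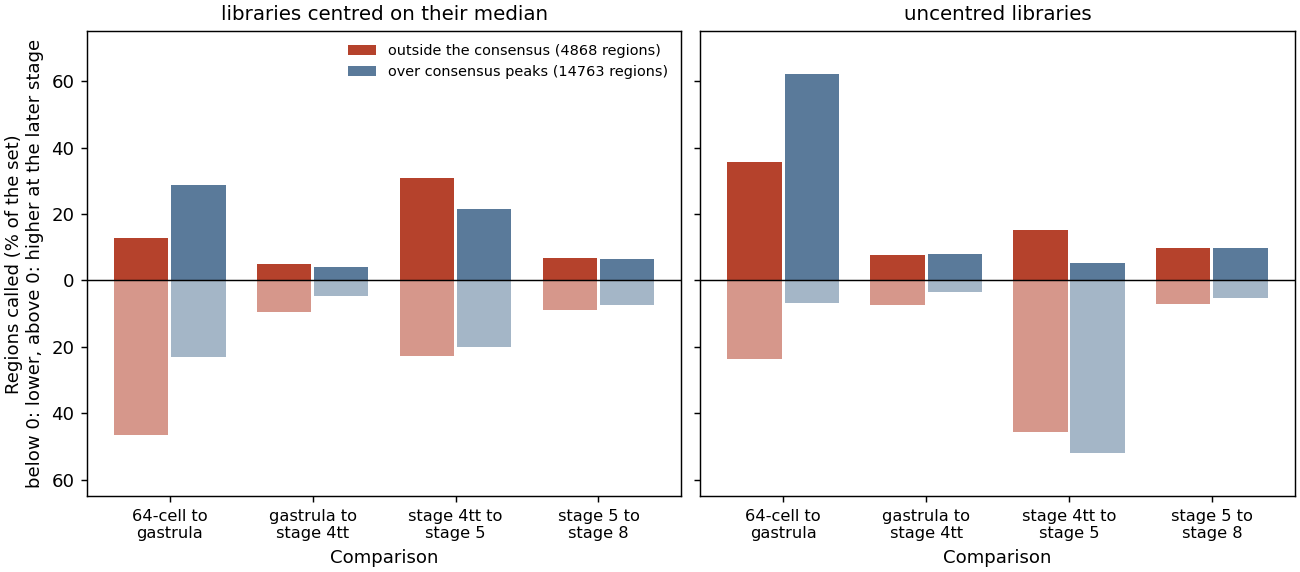
Regions called by limma between consecutive stages, in percent of each set, above 0 for higher and below 0 for lower at the later stage, with centred libraries on the left and uncentred ones on the right. At the gastrula 46.5% of the regions outside the consensus fell and 12.8% rose on the centred scale, and 1148 fell and 1732 rose on the uncentred one.

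Taking the 4 comparisons together, 837 regions outside the consensus were called in none (17.2%), against 24.7% of those over consensus peaks. A call in 1 comparison was made for 1699 (34.9%), in 2 for 1795 (36.9%), in 3 for 476 (9.78%) and in all 4 for 61 (1.25%). Over consensus peaks these shares were 41.3%, 27.9%, 5.6% and 0.515%. The most frequent course outside the consensus was a fall at the gastrula and a rise at stage 5 with no call between and after, in 930 regions (19.1%), against 1256 (8.51%) over consensus peaks. The 2 comparisons in this course share no library, but the course rests on the centring. Without it the median log2 change of all regions was 0.40 at the gastrula and −0.33 at stage 5. On that scale 1732 regions outside the consensus rose and 1148 fell at the gastrula, and 733 rose and 2217 fell at stage 5. The sequencing site also changes at stage 5. A fall at the gastrula alone was the next, with 682 regions (14.0%) outside the consensus and 1146 (7.76%) over consensus peaks. The opposite course, a rise at the gastrula and a fall at stage 5, was found in 198 regions outside the consensus (4.07%) and 1173 over consensus peaks (7.95%). A rise at the gastrula alone was found in 187 (3.84%) and 2182 (14.8%).

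The spread of a region over the 10 libraries was also larger outside the consensus, with a median SD of centred log2 values of 0.37 (quartiles 0.27 to 0.48), against 0.28 (0.21 to 0.35) over consensus peaks. Part of that spread lay between replicates. The median absolute log2 difference between the 2 libraries of a stage, outside the consensus and over consensus peaks, was 0.173 and 0.162 at the 64-cell stage, 0.166 and 0.115 at the gastrula, 0.166 and 0.111 at stage 4tt, 0.111 and 0.094 at stage 5, and 0.125 and 0.103 at stage 8. Replicates of regions outside the consensus were thus less alike at every stage. Replicates more than 2-fold apart were few in both sets, with 14, 29, 22, 0 and 2 regions outside the consensus at the 5 stages in order. These were 0.288%, 0.596%, 0.452%, 0% and 0.0411% of the regions outside the consensus. Over consensus peaks the shares were lower where there were any, at 0.0474%, 0.122%, 0.217%, 0% and 0.00677%.

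The extremes show the range of behaviours. The most variable region was on scaffold 7459 from 5635 to 6262, with 35.1 and 35.8 at the 64-cell stage, 27.7 and 32.3 at the gastrula, 27.5 and 23.4 at stage 4tt, 5.47 and 6.05 at stage 5, and 3.83 and 3.69 at stage 8. It fell by 1.81 on the log2 scale at stage 5 (SE 0.10, limma adjusted p = 1.02e-06), where the sequencing site also changes, and it fell by 0.66 at the gastrula (SE 0.10, adjusted p = 0.000182) and fell by 0.67 at stage 8 (SE 0.10, adjusted p = 0.00133), each time between libraries of 1 site. The steadiest was on scaffold 482 from 147227 to 149714, 2488 bp wide and 4033 bp from a consensus peak, with an SD of 0.07. Its values were 6.10 and 6.66, 8.51 and 8.26, 9.57 and 9.71, 7.61 and 7.63, and 7.14 and 7.72 at the 5 stages in order, and they followed the median of all regions. Without centring this region was called at the gastrula, where its log2 change was 0.40, and at stage 5, where it was −0.34 (limma adjusted p = 0.00237 and 0.00776).

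**Figure D5:**
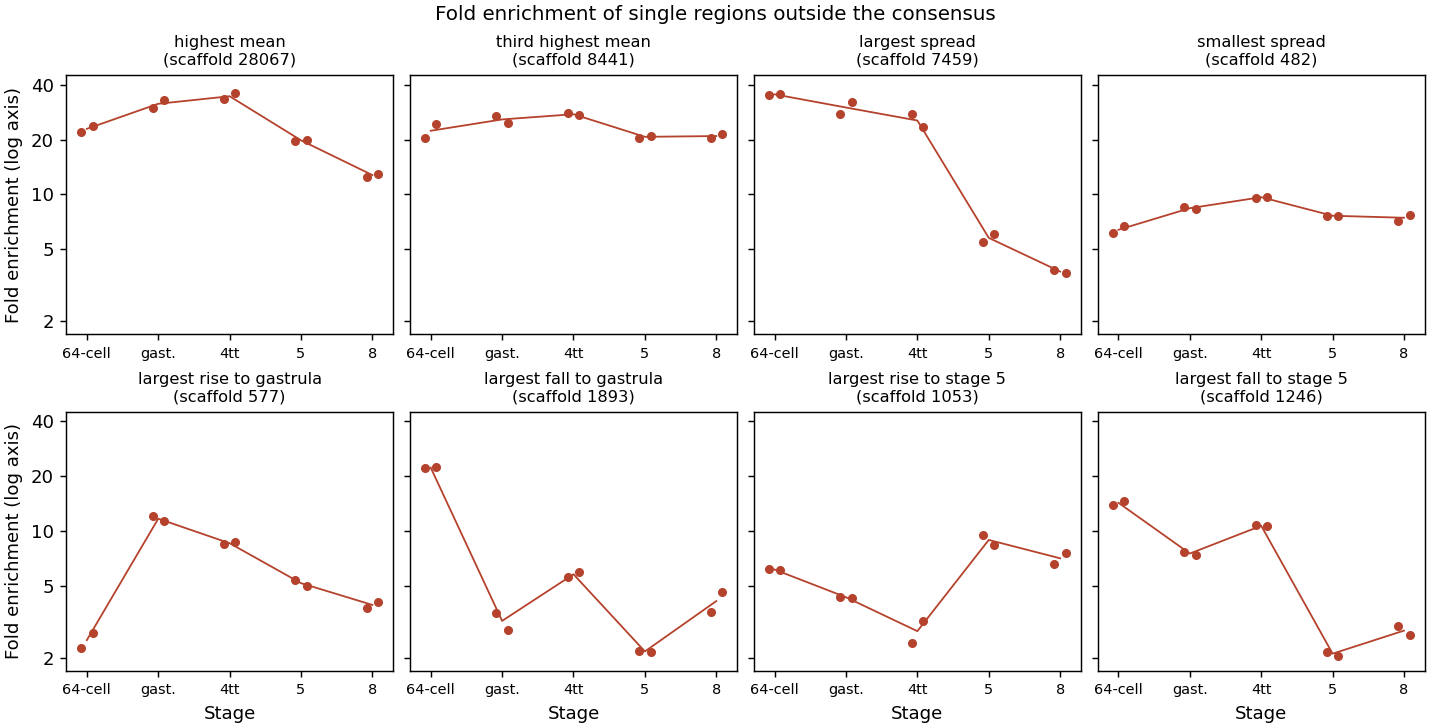
Fold enrichment (log axis) in the 2 libraries of each stage (points) and their mean (line) for 8 regions outside the consensus. The region on scaffold 1893 is at 3.54 and 2.85 at the gastrula, against 22.1 and 22.4 at the 64-cell stage, and the regions on scaffolds 7459 and 1246 are lower in all 4 libraries of stage 5 and stage 8 than in the 6 earlier ones.

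The 3 regions with the highest means were called for smaller changes. The region on scaffold 28067 fell by 0.47 at stage 5 (SE 0.07, limma adjusted p = 0.000474) on the log2 scale, and at stage 8 it fell by 0.69 (SE 0.07, adjusted p = 0.000167). Without centring it was also called at the gastrula, with a log2 change of 0.46 (limma adjusted p = 0.000166), against 0.04 with centring. The one on scaffold 32641 rose by 0.25 at the gastrula (SE 0.09, limma adjusted p = 0.0381), or by 0.66 without centring, and fell by 0.52 at stage 8 (SE 0.09, adjusted p = 0.00357). The one on scaffold 8441 was called in no comparison, with limma adjusted p of 0.054 at the gastrula and 0.452 to 0.871 after it. Without centring it was called at the gastrula, with a log2 change of 0.21, and at stage 5, with −0.41 (limma adjusted p = 0.0408 and 0.00132). The region nearest to a consensus peak, on scaffold 102, was weak at every stage, with 2.33 to 4.42 over the 10 libraries. The farthest one, on scaffold 106, had 4.91 and 5.16 at the 64-cell stage and 6.98 to 8.43 at all later stages.

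The fold enrichment is not the measure on which the study compared stages, and the regions outside the consensus have no normalised signal in the consensus table. How the measures relate could be seen only in regions over consensus peaks, in 14680 that matched exactly 1 consensus peak. Across these regions, which are not independent and share libraries, the change in fold enrichment and the change in the deposited normalised signal had a Pearson r of 0.288 from the 64-cell embryo to the gastrula, 0.391 to stage 4tt, 0.429 to stage 5 and 0.511 to stage 8. Of the regions called in these comparisons 65.9%, 84.8%, 77.4% and 88.8% changed in the same direction in both measures, each relative to its median. The relation between the measures was weakest at the gastrula, where the regions outside the consensus differed most from the others. Per its methods, the study kept peaks that were reproducible between replicates and removed those in repeats before it built the consensus, and the part of either step in the absence of these 4868 regions was not tested.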

How the data were processed

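ATAC-seq reads of the 10 libraries were trimmed with cutadapt, mapped with NextGenMap, freed of duplicates with samtools and shifted for the transposase offset with deepTools by the authors, who called peaks per library with MACS2 2.2.7.1. The deposited lists give per peak a fold enrichment (ratio) over local background, a score, a −log10 p-value and a −log10 q-value (lowest 2.00), and the offset of the summit. The deposited consensus table gives the authors' normalised signal, not counts, after filtering by reproducibility and repeats. Peaks were merged with bedtools 2.31.1 with a minimum overlap of 1 bp. The log2 of the highest fold enrichment per region and list (no pseudocount, no filter on low values) was centred on each library's median and fitted with limma 3.58.1 (trend, robust, two-sided) in R 4.3.3, with Benjamini-Hochberg adjustment over 19631 regions in each of 4 comparisons. The fit was tested on simulated data for the comparison of the 64-cell embryo with the gastrula. Of 50 regions changed 1.2-fold, 0 were called the right way, and of 50 changed 1.5-fold, 18 were (36%). At 2-fold it was 40 of 50 (80%) and at 4-fold 50 of 50. Of 19431 unchanged regions 3 were called. Small changes were thus mostly missed in this test, and a region without a call is not shown to be unchanged. No depth is known, and 2 libraries per stage limit the precision. Named regions were, per comparison, the largest called rise and fall without overlap of the 4 libraries, the 3 highest means, the widest and narrowest, the nearest to and farthest from a consensus peak, and the smallest and largest SD. The regions, sets and tests were chosen with earlier results of these data known.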

Additional observations from a re-analysis of the deposited data

How the results depend on the processing

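The number of regions outside the consensus was 4868, and it was 4837 when peaks up to 100 bp apart were merged, 5082 when an overlap of at least 50% was asked for, 3952 with peaks of a −log10 q-value of 5 or more, and 4917 to 5133 when each library was left out in turn. Called regions from the gastrula to stage 4tt numbered 702, against 452 with quantile normalisation, 143 with only the 4 libraries of these stages, and 357 to 861 without 1 library each. From stage 4tt to stage 5 there were 2611, against 1733 to 2738 without 1 library each. From stage 5 to stage 8 there were 757, against 1609 with only the 4 libraries of these stages and 223 to 905 without 1 library each. The mean log2 difference between the sets, 0.072, was 0.039 to 0.089 without 1 library each. Why these numbers moved was not tested. Correlations of replicate differences between stages were −0.0571 to 0.0879, so replicate numbers showed little shared effect. Whether the libraries were paired by design cannot be told from this. A replicate block gave 2903, 683, 2611 and 737 calls in the 4 comparisons, against 2891, 702, 2611 and 757. Centring on the regions outside the consensus, an alternative chosen after seeing the data, gave 1326 that rose and 1484 that fell at the gastrula, and 1328 and 1326 at stage 5. Over consensus peaks it gave 7652 and 1611 at the gastrula, and 2499 and 3706 at stage 5. At a log2 change of 0.5 or more, 2185, 532, 1906 and 520 of the 4868 regions outside the consensus were called. In the 4 comparisons in order, 343, 179, 1148 and 220 of them rose and 1842, 353, 758 and 300 fell. Of the 14763 regions over consensus peaks, 2148, 280, 1583 and 495 rose and 2136, 476, 1504 and 661 fell. Read depth limits all values and is unknown.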
